A study of Mus musculus with 6 samples.

Results

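Fatty acid synthesis, elongation and glyceride assembly were examined through 35 genes picked by symbol, out of 55385 genes in the expression tables of the series. All 35 symbols were found, and 33 had enough counts to be tested. The rule lists symbols by function and uses no measured values, but the list was drawn up with earlier results of these data known.

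Cells build fatty acids in the cytosol from acetyl-CoA, which ATP-citrate lyase makes from citrate, and from malonyl-CoA, which acetyl-CoA carboxylases make from acetyl-CoA. Fatty acid synthase joins these units into palmitate, and a separate set of enzymes in the endoplasmic reticulum then lengthens the chain. Activated fatty acids are placed on glycerol-3-phosphate by a series of acyltransferases, which gives phosphatidic acid, diacylglycerol and finally triglyceride. In the mammary gland this pathway supplies milk fat and adipocyte triglyceride, and in carcinoma cells it supplies membrane lipid. Liver X receptors (LXRs) are nuclear receptors for oxysterols that induce Srebf1, a transcription factor that in turn drives many of these genes.

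The mice were NeuT/ATTAC females. They carried an activated rat ErbB2 gene expressed from the MMTV promoter, which gives mammary tumors, and an FKBPv-caspase-8 fusion under the FABP4 promoter, which is active in fat. The dimerizer AP20187 (0.4 mg/kg, from 6 weeks of age) triggers the fusion protein, so that part of the mammary fat is lost and replaced by fibrotic tissue. DMHCA, a steroidal LXR agonist, was given to the treated group in the diet at 0.05% (100 mg/kg) from 8 weeks of age. Both groups shared the transgenes. The controls' label names AP20187 and vehicle together, and the study's description of AP20187-treated control mice was followed. The labels call the tissue fibrotic mammary gland, and the study's text calls the samples tumors. RNA came from whole pulverized tissue, so every cell type in the piece contributed.

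Each group held 3 libraries, described by the study as coming from different mice, with 46358654 to 63420620 expected counts in the controls and 52330938 to 55539411 in the DMHCA group. DMHCA libraries 1 and 3 were nearly identical: their biological coefficient of variation was 0.0327, against 0.376 to 0.579 for the other 5 pairs within a group. They were summed and counted as 1 sample, DMHCA 1+3, so the comparison set 3 control samples against 2 DMHCA samples. Among the members with a TPM above 1 in both libraries, the ratio of library 1 to library 3 lay between 0.883 and 1.36. Control 3 stood apart by its summed adipocyte marker level of 1430 TPM, against 342 and 153 TPM in Control 1 and 2 and 104 and 103 TPM in DMHCA 1+3 and DMHCA 2. Several values that change with Control 3 are therefore also given without it. Control 1 also stood apart: the study's gene list gives Bpifa2, Amy1 and Chia1 far higher in it than in any other library. The tissue behind these genes was not tested. The luminal keratin Krt8 and the epithelial adhesion gene Epcam were present at a high level in every sample (at least 56986 and 72051 normalized counts).

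After adjustment over the 19427 genes tested, no member passed an adjusted p of 0.05 by edgeR's quasi-likelihood F-test, and neither did any other gene (0.0% of all genes), although 1478 genes had an unadjusted p under 0.05. Nothing below is therefore called changed. By DESeq2, 244 genes passed with the same 5 samples (0.249% higher and 0.967% lower), and 0 of them were members. When DESeq2 counted all 6 libraries as separate samples, 846 genes passed, and 3 were members: Mid1ip1 and Gpam higher (1.29% of all genes were called in that direction) and Agpat4 lower (2.68%). That fit counts the near-identical pair as independent.

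An unadjusted p under 0.05 was reached by 4 members with a higher DMHCA mean (Acly, Acacb, Mid1ip1 and Gpam), where 3.53% of all genes did so, and by 0 members with a lower mean, where 4.08% of all genes did. In 10 members both DMHCA samples lay above all 3 controls (background 13.8%), and in 2 members both lay below (background 12.2%). The estimate was above 0 in 23 of the 33 tested members, against 48.0% of all genes. The median log2 fold change was 0.24 in the members and -0.03 over all genes tested.

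**Figure D1:**
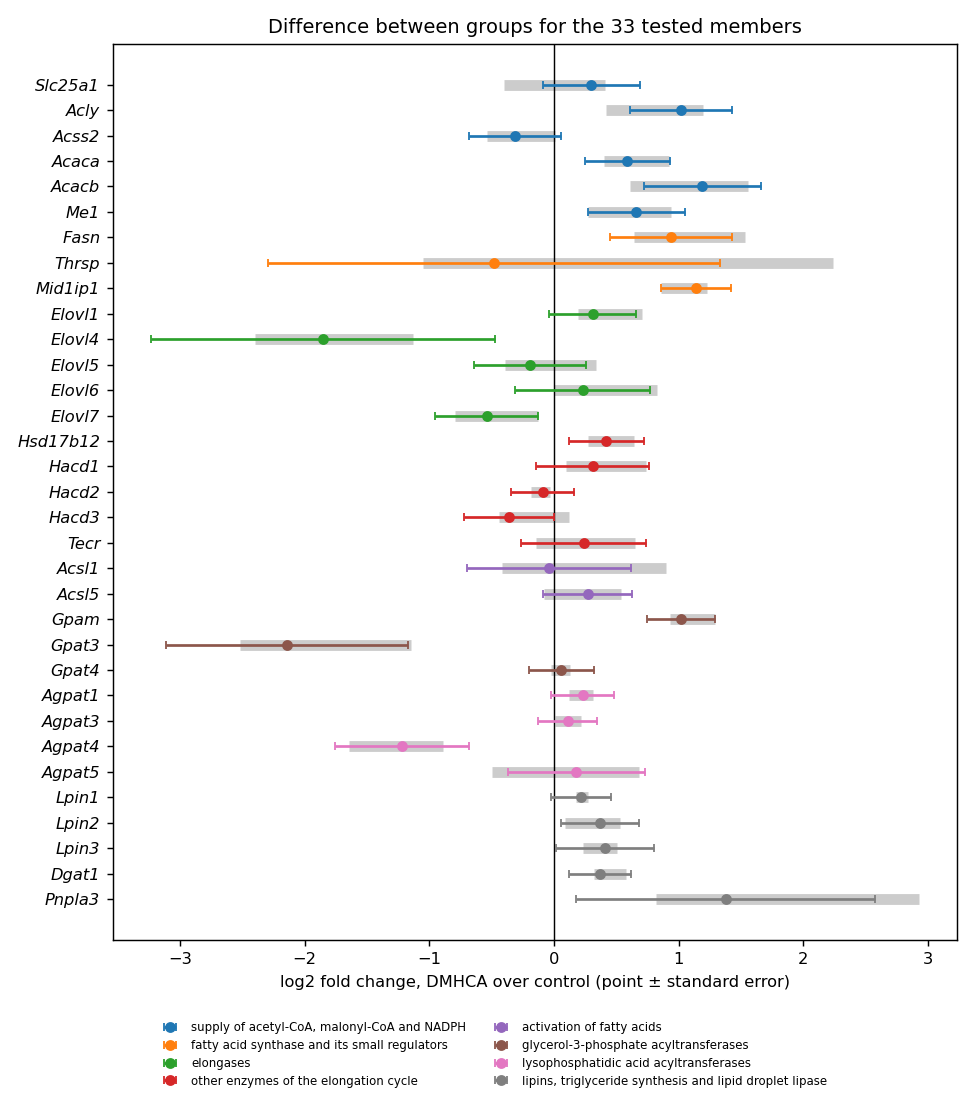
Log2 fold change of DMHCA against control for the 33 tested members, grouped by role. Points show the edgeR estimate, coloured bars its standard error and grey bars the range of estimates with each library left out in turn, and the estimates run from -2.14 (Gpat3) to 1.38 (Pnpla3).

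The promoter sequences of the 4 members with the smallest p are shown because these are the members with an unadjusted p under 0.05, and that of Fasn because it is the central synthase. The sequences are RefSeq windows on GRCm38.p6, written 5′ to 3′ on the strand of the gene and ending at the base before the annotated start, except that the Acacb sequence is cut at 114165508, where an exon of that gene begins in GENCODE a few bases before the RefSeq start. Capitals mark CCAAT or its reverse complement ATTGG, a common promoter box bound by NF-Y, and AGGTCA, the core that LXRs and other nuclear receptors recognise, on either strand. The Mid1ip1 window lies at chrX:10717115-10717364 (plus strand), the Gpam window at chr19:55127239-55127488 (minus), the Acly window at chr11:100528001-100528250 (minus), the Acacb window at chr5:114165268-114165508 (plus, 241 bases) and the Fasn window at chr11:120824548-120824797 (minus). The Mid1ip1 and Acacb windows lie inside the spans that GENCODE gives for these genes, because GENCODE starts a longer transcript upstream, and the Mid1ip1 window overlaps an antisense exon of Gm10489.
Mid1ip1: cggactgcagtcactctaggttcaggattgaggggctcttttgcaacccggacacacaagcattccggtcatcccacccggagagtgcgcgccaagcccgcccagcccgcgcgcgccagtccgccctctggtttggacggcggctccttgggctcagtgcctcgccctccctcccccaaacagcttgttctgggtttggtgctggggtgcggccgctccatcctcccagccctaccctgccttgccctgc
Gpam: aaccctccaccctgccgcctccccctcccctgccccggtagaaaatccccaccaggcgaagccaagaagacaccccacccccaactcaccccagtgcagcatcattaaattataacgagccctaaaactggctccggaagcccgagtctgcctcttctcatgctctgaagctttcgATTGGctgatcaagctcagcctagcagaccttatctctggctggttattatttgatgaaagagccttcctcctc
Acly: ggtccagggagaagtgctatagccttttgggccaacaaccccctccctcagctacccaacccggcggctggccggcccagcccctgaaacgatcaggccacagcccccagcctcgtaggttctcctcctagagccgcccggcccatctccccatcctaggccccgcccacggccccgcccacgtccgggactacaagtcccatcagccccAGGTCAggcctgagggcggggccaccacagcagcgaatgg
Acacb: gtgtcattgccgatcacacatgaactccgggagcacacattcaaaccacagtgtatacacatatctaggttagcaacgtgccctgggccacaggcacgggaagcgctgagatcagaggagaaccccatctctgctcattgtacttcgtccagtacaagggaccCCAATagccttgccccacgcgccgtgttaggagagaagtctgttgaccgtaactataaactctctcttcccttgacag
Fasn: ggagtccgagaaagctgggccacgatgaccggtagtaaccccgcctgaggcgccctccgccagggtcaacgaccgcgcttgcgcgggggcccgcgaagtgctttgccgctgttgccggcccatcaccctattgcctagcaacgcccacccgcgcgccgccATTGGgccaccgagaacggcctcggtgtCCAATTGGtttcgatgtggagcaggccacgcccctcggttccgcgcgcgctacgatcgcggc
The printed Fasn window held 3 CCAAT boxes, of which 2 overlap on opposite strands, the Gpam and Acacb windows held 1 each, the Acly window held 1 AGGTCA, and the Mid1ip1 window held none of the marked letters. Windows from 250 bases before to 50 after a start were listed for 31 of the 35 members, and a gene counted if any of its windows held a motif on either strand. CCAAT was found in 20 of the 31 (64.5%), against 41.1% of the 27025 genes with a window, and GGGCGG, the GC box, in 21 (67.7%) against 38.2%. AGGTCA was found in 7 members (22.6%), namely Acly, Acacb, Elovl1, Elovl6, Gpam, Agpat1 and Lpin1, against 18.1% of all genes. For CACGTG, an E-box, the count was 6 members (19.4%) against 8.09%. The sterol-response-like TCACNCCAC was found in Acsl1 alone (3.23% against 1.44%), and a direct repeat of AGGTCA with a spacer of 4 bases in 0 members (0.0148% of all genes). In Gpam the AGGTCA lay in another window, which is not printed, and in Acacb it lay after the start. These are matches of letters only, and the genes compared were not matched for expression.

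The supply of acetyl-CoA, malonyl-CoA and NADPH rests on 6 members. Of these, 5 had an estimate above 0 (48.0% of all genes did), and 3 lay above all controls (13.8%). Acly (chr11:100476353-100528000, minus strand), which makes cytosolic acetyl-CoA, had 15377, 12505 and 19852 normalized counts in Control 1, 2 and 3, and 20674 and 43831 in DMHCA 1+3 and DMHCA 2. The highest control and the lower DMHCA sample were close, and DMHCA 2 was far above both. The means were 15911 ± 3702 (SD, n = 3) and 32253 ± 16374 (SD, n = 2). The log2 fold change was 1.02 with a standard error of 0.41 (edgeR, unadjusted p = 0.0436, adjusted p = 0.644), and it ranged from 0.42 (without DMHCA 2) to 1.2 (without Control 3) with each library left out. The unadjusted p by edgeR was above 0.05 without Control 1 (0.109) or Control 2 (0.107). It was also above 0.05 with library totals (0.0565) or a stricter filter on low counts (0.0592), where the groups overlapped.

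Acacb (chr5:114146535-114250761, plus strand), the mitochondrial-membrane carboxylase whose malonyl-CoA restrains fatty acid oxidation, was low in all samples and followed the same order as Acly. Its values were 806, 579 and 1303 normalized counts in Control 1, 2 and 3, and 1327 and 2767 in DMHCA 1+3 and DMHCA 2. The estimated log2 fold change was 1.19 with a standard error of 0.47 (edgeR, unadjusted p = 0.0409, adjusted p = 0.644). The difference was 0.61 without DMHCA 2 and 1.56 without Control 3, the lowest and highest values with a library left out. As for Acly, the unadjusted p by edgeR was above 0.05 without Control 1 (0.112) or Control 2 (0.0961). It was also above 0.05 with library totals (0.0616) or a stricter filter on low counts (0.0607), where the groups overlapped. By limma on log2(TPM + 1) it was 0.0944. The effective length that RSEM assigned to Acacb ran from 4470 bases in Control 1 to 6697 bases in DMHCA 2.

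Acaca (chr11:84129672-84401651, plus strand) encodes the cytosolic carboxylase that feeds fatty acid synthase. It had 5109, 4351 and 8425 normalized counts in Control 1, 2 and 3, and 8733 and 9175 in DMHCA 1+3 and DMHCA 2. The DMHCA samples were close to each other, and Control 3 was just below them. The log2 fold change of 0.59 had a standard error of 0.34 (edgeR, unadjusted p = 0.132), and with a library left out it ranged from 0.40 (without Control 2) to 0.92 (without Control 3, unadjusted p = 0.0195, adjusted p = 0.864).

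Me1, the cytosolic malic enzyme that yields NADPH, had 15352, 23579 and 13446 normalized counts in the controls and 20483 and 34699 in DMHCA 1+3 and DMHCA 2. Control 2 overlapped with the DMHCA range, and the log2 fold change was 0.66 with a standard error of 0.39. It was 0.27 without DMHCA 2 (edgeR, unadjusted p = 0.593) and 0.94 without Control 2 (unadjusted p = 0.0487). Slc25a1, which carries citrate out of mitochondria, had 3501, 3746 and 4484 normalized counts in the controls, and its DMHCA values fell on both sides of them (2872 and 6773). Acss2, which makes acetyl-CoA from acetate, was the member of this group with a lower mean: its log2 fold change was -0.31 with a standard error of 0.37, and the 2 DMHCA values of 1349 and 1526 lay within the control range of 1203 to 2486.

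Fatty acid synthase and its small regulators were 3 members. Fasn and Mid1ip1 did not overlap between groups and were higher (13.8% of all genes), and Thrsp overlapped. Fasn (chr11:120805846-120824547, minus strand) had 13898, 9895 and 30126 normalized counts in Control 1, 2 and 3, and 33173 and 35606 in DMHCA 1+3 and DMHCA 2. Both DMHCA samples were high, and so was Control 3. The means were 17973 ± 10713 (SD, n = 3) and 34390 ± 1720 (SD, n = 2), and the log2 fold change was 0.94 with a standard error of 0.49 (edgeR, unadjusted p = 0.103, adjusted p = 0.649). With a library left out it ranged from 0.64 (without Control 2) to 1.53 (without Control 3, unadjusted p = 0.00466, adjusted p = 0.755). On the TPM scale, which is per length, the groups overlapped: the controls had 59.6, 48.0 and 186 TPM, and the DMHCA samples 149 and 163 TPM. The effective length that RSEM assigned to Fasn was 5047, 3334 and 3270 bases in the controls and 4617, 5048 and 4789 bases in DMHCA libraries 1, 2 and 3, so the 2 scales are not interchangeable for this gene.

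Mid1ip1 (chrX:10715013-10719690, plus strand) encodes a small protein that promotes polymerization of acetyl-CoA carboxylase. It had 1286, 1493 and 1195 normalized counts in Control 1, 2 and 3, and 2344 and 3481 in DMHCA 1+3 and DMHCA 2. The controls varied little, and both DMHCA samples were well above the highest of them. The means were 1325 ± 153 (SD, n = 3) and 2912 ± 804 (SD, n = 2), a 2.2-fold ratio. The log2 fold change was 1.14 with a standard error of 0.28 (edgeR, unadjusted p = 0.00593, adjusted p = 0.644), and it ranged from 0.86 to 1.23 with each library left out. Without DMHCA 2 the unadjusted p was 0.0578. An antisense gene, Gm14493, overlaps its exons, and the strand setting of the counting is not given in the sources used here.

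Thrsp, a paralog of Mid1ip1 that is abundant in lipogenic tissue, did not follow it. Its values were 1247, 222 and 13063 normalized counts in Control 1, 2 and 3, and 6803 and 138 in DMHCA 1+3 and DMHCA 2. Each group held both a high and a low sample. The estimated log2 fold change was -0.48 with a standard error of 1.81, and it ranged from -1.05 (without Control 2) to 2.24 (without Control 3).

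**Figure D2:**
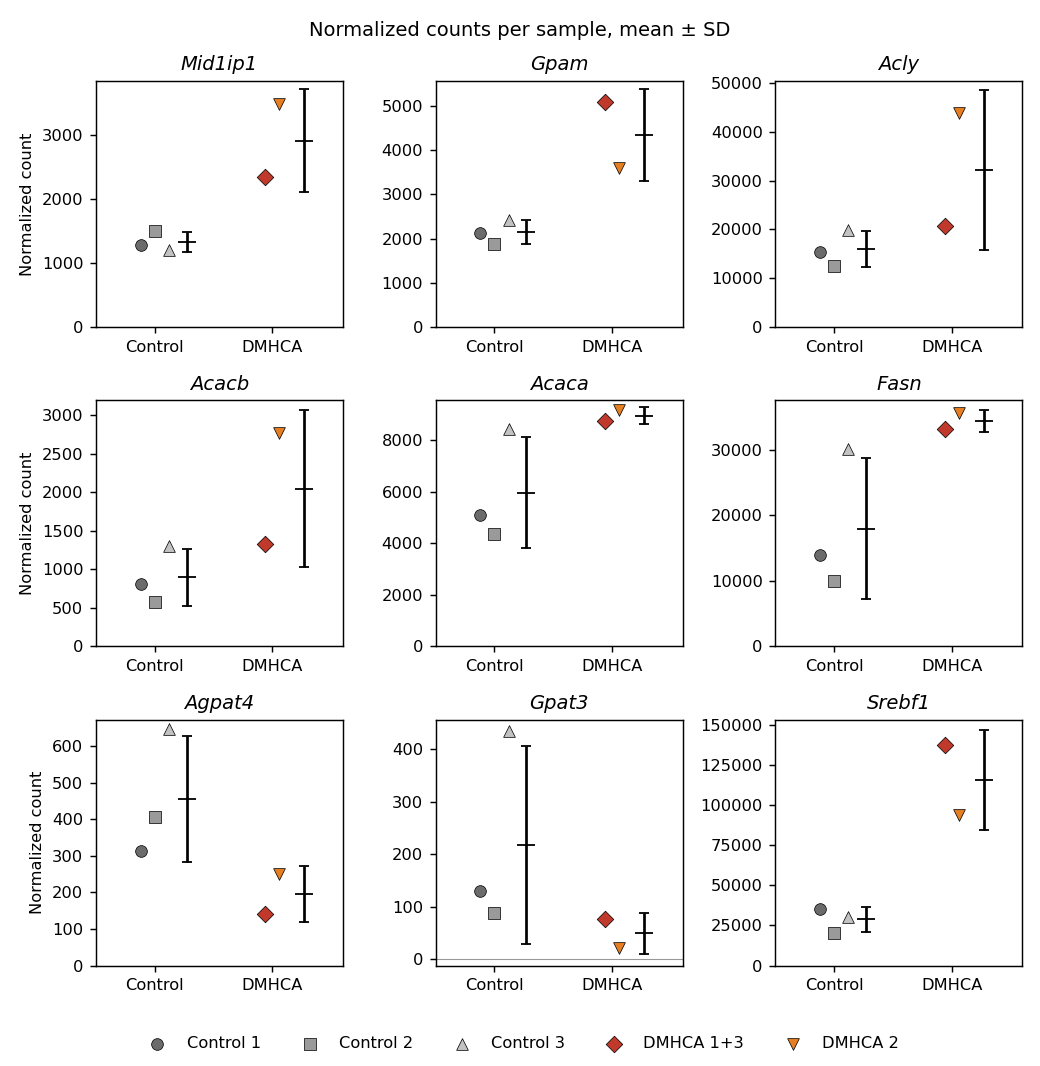
Normalized counts of 8 members and of Srebf1, a regulator outside the member list, in each sample, with the mean and SD of each group drawn beside the points. Mid1ip1 and Gpam show controls in a narrow band below both DMHCA samples, whereas in Fasn and Acaca Control 3 lies close to the DMHCA samples.

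Elongation of fatty acids is carried out by a cycle of 4 reactions, the first of which is set by 7 elongases that differ in the chains they accept. None of the 5 elongases tested had groups that did not overlap, and their median log2 fold change was -0.19. The sign of this median was not stable: it was 0.07 without Control 3, -0.41 without DMHCA 2 and 0.23 on log2(TPM + 1). Elovl2 and Elovl3 had too few counts to test in the fit reported. Elovl2, an elongase of polyunsaturated chains, had 0, 0 and 2 expected counts in Control 1, 2 and 3 and 0, 5 and 0 in DMHCA 1, 2 and 3. Elovl3, known from skin and brown fat, had 2, 0 and 24 expected counts in the controls and 0 in each of the 3 DMHCA libraries. Elovl4, an elongase of very long chains, passed the filter with few counts, and its 40.2 normalized counts in Control 3 stood against 1.14 to 12.7 in the other 4 samples.

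By TPM the order of the elongases was led by Elovl5 and Elovl1. Elovl5, which extends polyunsaturated chains, had 69.2, 121 and 63.5 TPM in Control 1, 2 and 3 and 92.0 and 84.1 TPM in DMHCA 1+3 and DMHCA 2. Elovl1, which makes very long saturated chains for sphingolipids, had 60.2, 45.5 and 88.8 TPM in the controls and 107 and 64.3 TPM in DMHCA 1+3 and DMHCA 2. Their ranges overlapped, so these neighbours in the order did not differ beyond their spread. Elovl7 (13.3 to 26.0 TPM) and Elovl6 (7.51 to 22.4 TPM) formed a lower pair, which also overlapped each other. The share of the elongases' summed TPM held by Elovl6, the enzyme that turns palmitate into stearate, was 5.78%, 3.76% and 10.1% in the controls and 9.56% and 4.97% in the DMHCA samples, so the groups overlapped there too. Elovl6 reached 5241 normalized counts in Control 3 and 5805 in DMHCA 1+3, while the other 3 samples had 2094 to 2613.

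**Figure D3:**
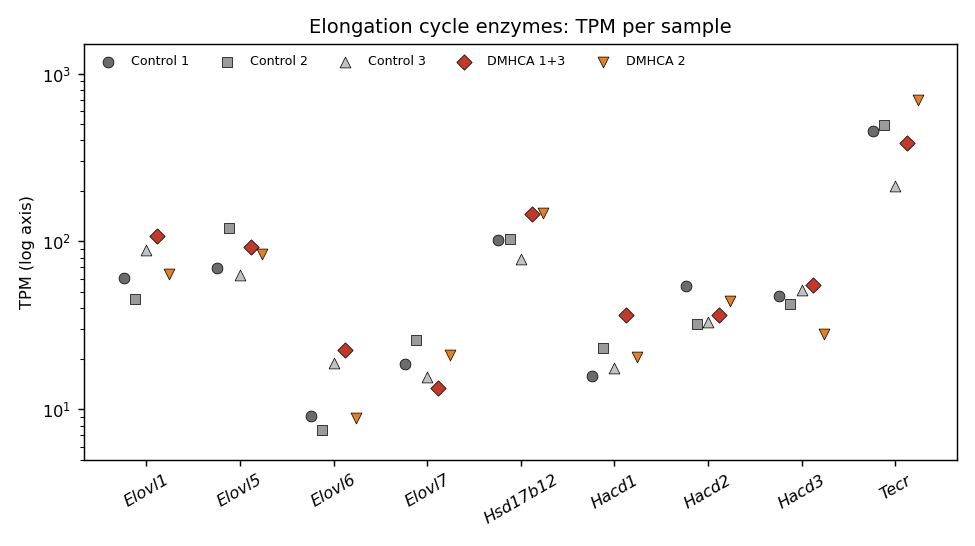
TPM of 4 elongases (Elovl2, Elovl3 and Elovl4 are too low to draw) and of the other enzymes of the elongation cycle in each sample, on a log axis. Tecr is the highest in every sample (214 to 699 TPM), and the control and DMHCA points overlap for each elongase drawn.

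The remaining enzymes of the cycle are not specific to chain length. Tecr, the trans-enoyl-CoA reductase of the last step, had the highest mean TPM of any member, with 454, 496 and 214 TPM in Control 1, 2 and 3 and 385 and 699 TPM in DMHCA 1+3 and DMHCA 2. These values overlapped between groups, and the log2 fold change on counts was 0.24 with a standard error of 0.50. Hsd17b12, the ketoacyl-CoA reductase, was the only enzyme of the cycle whose groups did not overlap: it had 8046, 10993 and 6750 normalized counts in the controls and 11937 and 11070 in DMHCA 1+3 and DMHCA 2. The gap between Control 2 and DMHCA 2 was small, and the log2 fold change was 0.42 with a standard error of 0.30 (edgeR, unadjusted p = 0.205). Hacd1, Hacd2 and Hacd3, the dehydratases, had log2 fold changes of 0.31, -0.09 and -0.36. Hacd3 was lowest in DMHCA 2, with 3090 normalized counts against 5526 to 6655 in the other 4 samples.

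Activation of fatty acids to acyl-CoA was represented by Acsl1 and Acsl5, and neither separated the groups. Acsl1, the main acyl-CoA synthetase of adipocytes, had 2808, 1673 and 8423 normalized counts in Control 1, 2 and 3 and 5058 and 3324 in DMHCA 1+3 and DMHCA 2. Control 3 was the highest sample, and Control 1 and 2 were the lowest. For Acsl1 the log2 fold change was -0.04 with a standard error of 0.66, and without Control 3 it was 0.90 (edgeR, unadjusted p = 0.0559). Acsl5, a related synthetase, had 6546 to 11623 normalized counts in the controls and 7964 and 12908 in the DMHCA samples.

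Glyceride assembly begins with glycerol-3-phosphate acyltransferases, and the 3 members of this family gave 3 different pictures. Gpam (chr19:55067268-55127238, minus strand), the mitochondrial enzyme, had 2137, 1871 and 2416 normalized counts in Control 1, 2 and 3, and 5088 and 3609 in DMHCA 1+3 and DMHCA 2. Every DMHCA sample was well above every control. The means were 2141 ± 273 (SD, n = 3) and 4349 ± 1046 (SD, n = 2), a 2.03-fold ratio, and the log2 fold change was 1.02 with a standard error of 0.27 (edgeR, unadjusted p = 0.00711, adjusted p = 0.644). It ranged from 0.93 to 1.29 with each library left out, and Gpam was the only member with an unadjusted p under 0.05 in each of the 17 alternatives run. In 1 of these, without DMHCA 2, the DMHCA group is 1 sample and the spread comes from the controls alone.

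Gpat4, an enzyme of the endoplasmic reticulum, was even across samples. It had 9741, 9713 and 11372 normalized counts in the controls and 9813 and 11549 in the DMHCA samples, with a log2 fold change of 0.06 and a standard error of 0.26. Gpat3 (chr5:100845713-100899102, plus strand), the form most abundant in adipocytes, was scarce and lower under DMHCA. It had 130, 88.8 and 435 normalized counts in Control 1, 2 and 3 and 77.1 and 20.6 in DMHCA 1+3 and DMHCA 2. The groups did not overlap, although Control 2 and DMHCA 1+3 were close, and on TPM they overlapped. For Gpat3 the log2 fold change was -2.14 with a standard error of 0.97 (edgeR, unadjusted p = 0.0653), and it ranged from -2.52 without Control 2 (unadjusted p = 0.0413) to -1.15 without Control 3. Gm42987 shares the strand and some exons with Gpat3, so the division of reads between them is uncertain.

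The second acyl chain is added by lysophosphatidic acid acyltransferases. Agpat4 (chr17:12118704-12219645, plus strand) had 314, 405 and 645 normalized counts in Control 1, 2 and 3 and 141 and 249 in DMHCA 1+3 and DMHCA 2. Both DMHCA samples lay below the controls, on counts and on TPM. The log2 fold change was -1.22 with a standard error of 0.54 (edgeR, unadjusted p = 0.0617, adjusted p = 0.644), and it ranged from -1.64 without DMHCA 2 to -0.89 without Control 3. Its adjusted p was 0.0499 by DESeq2 on 6 libraries and 0.317 by DESeq2 on 5 samples. Agpat1, Agpat3 and Agpat5 had log2 fold changes of 0.23, 0.11 and 0.18, and their groups overlapped. Agpat5 was the most variable of these, from 1583 normalized counts in Control 3 to 5114 in Control 2.

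Phosphatidic acid is turned into diacylglycerol by lipins and into triglyceride by Dgat1. The estimates of all 5 members of this group were above 0 (48.0% of all genes), from 0.22 to 1.38 on the log2 scale. None had an unadjusted p under 0.05. Lpin1, the lipin of adipocytes and muscle, had 1793, 1891 and 1987 normalized counts in Control 1, 2 and 3 and 2211 and 2207 in DMHCA 1+3 and DMHCA 2. The groups did not overlap, and the difference was small: 0.22 on the log2 scale with a standard error of 0.24. Dgat1, the diacylglycerol acyltransferase that completes triglyceride in many tissues, had 1960, 2279 and 2019 normalized counts in the controls and 3027 and 2348 in the DMHCA samples, with a log2 fold change of 0.37 and a standard error of 0.25. Lpin3 also did not overlap (405 to 621 against 636 and 807 normalized counts), and Lpin2 did (1534 to 2269 against 1920 and 2870).

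Pnpla3, a lipid droplet protein with lipase and acyltransferase activity and a well-known target of Srebf1, had 80.8, 7.97 and 304 normalized counts in Control 1, 2 and 3 and 464 and 214 in DMHCA 1+3 and DMHCA 2. Control 3 lay between the DMHCA samples. The Pnpla3 estimate of 1.38 on the log2 scale had the large standard error of 1.2 (edgeR, unadjusted p = 0.293), and it ranged from 0.82 without Control 2 (unadjusted p = 0.351) to 2.93 without Control 3 (unadjusted p = 0.0315, adjusted p = 0.864). Gm49513 shares the strand and some exons with it.

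Levels were also summed per role on the TPM scale. All 35 members together made up 1505, 1439 and 1616 TPM in Control 1, 2 and 3 and 1871 and 2427 TPM in DMHCA 1+3 and DMHCA 2. The genes of acetyl-CoA, malonyl-CoA and NADPH supply summed to 288, 240 and 300 TPM in the controls and 340 and 688 TPM in the DMHCA samples, with DMHCA 2 far above the other samples. Fasn, Thrsp and Mid1ip1 together gave 101, 64.4 and 438 TPM in the controls and 310 and 217 TPM in the DMHCA samples, with Control 3 the highest. The elongases gave 157 to 200 TPM in the controls and 235 and 178 TPM in the DMHCA samples. The 2 scales were centred differently: the median log2 difference over all genes was 0.16 on log2(TPM + 1) and -0.03 on counts, and the members' medians were 0.45 and 0.24. On TPM 12 members lay higher in both DMHCA samples (21.8% of all genes did) and 1 lay lower (6.66%).

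**Figure D4:**
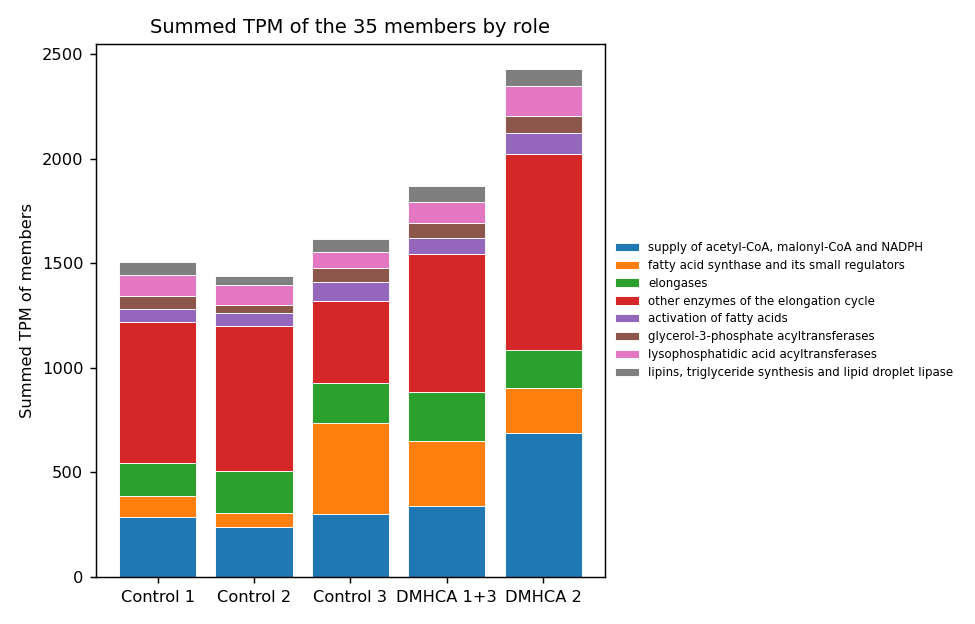
Stacked bars of the summed TPM of the 35 members in each sample, with a colour for each role. The other enzymes of the elongation cycle give the largest sum in 4 of the 5 samples because of Tecr, and the supply genes reach 688 TPM in DMHCA 2.

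The 2 DMHCA samples differed from each other in the members that were highest in them. DMHCA 2 was the highest sample for 12 of the 33 tested members, among them Slc25a1, Acly, Acacb, Me1 and Mid1ip1, and DMHCA 1+3 for 8, among them Elovl1, Elovl6, Hacd1, Gpam and Pnpla3. Control 2 and Control 3 were each highest for 6 members and Control 1 for 1. The lowest sample was Control 2 for 11 members and Control 3 for 10. How often each sample was highest or lowest over all genes was not counted, so these counts describe the members only. With Control 3 left out, 7 members had an unadjusted p under 0.05 with a higher DMHCA mean (Acly, Acaca, Acacb, Fasn, Mid1ip1, Gpam and Pnpla3), where 2.16% of all genes did, and 0 members with a lower mean (3.27%). Then 13 members did not overlap and were higher (18.1%), and 4 were lower (16.7%). With DMHCA 2 left out, which leaves 1 DMHCA sample and takes the spread from the controls alone, Gpam alone had such a p with a higher mean (2.78% of all genes) and 0 members with a lower mean (1.48%), while 15 members lay above (26.2%) and 4 below (23.6%) all controls. With edgeR on the 6 libraries as separate samples, 2 members had such a p with a higher mean (7.56%) and 2 with a lower mean (8.03%), and 8 lay above (12.7%) and 2 below (10.8%).

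Regulators and neighbours of the pathway that are not members were read from 3 further lists. Srebf1, the transcription factor downstream of LXR, had 35429, 20549 and 30352 normalized counts in Control 1, 2 and 3 and 137556 and 93600 in DMHCA 1+3 and DMHCA 2, a log2 fold change of 2.01 with a standard error of 0.39 (edgeR, unadjusted p = 0.00156, adjusted p = 0.644). Scd1, the desaturase that makes oleate, had 44061, 32336 and 89309 against 400885 and 405062 normalized counts, and it differed by 2.87 on the log2 scale (standard error 0.53), more than any member. Scd2 had a log2 fold change of 2.15 with a standard error of 0.45. By DESeq2 on 5 samples the adjusted p was 0.00109 for Srebf1, 5.07e-05 for Scd1 and 0.00651 for Scd2, and 0.11 and 0.146 for Mid1ip1 and Gpam.

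The LXR genes themselves were present in every sample. Nr1h2, LXR beta, had 3724 to 6088 normalized counts in the controls and 6908 and 6109 in the DMHCA samples. Nr1h3, LXR alpha, was scarcer, with 434, 368 and 1026 normalized counts in the controls and 237 and 205 in the DMHCA samples (log2 fold change -1.46, standard error 0.59, edgeR, unadjusted p = 0.044), and without Control 3 its log2 fold change was -0.86 (unadjusted p = 0.112). Mlxipl, the carbohydrate-responsive regulator of the same pathway, had 118 to 427 normalized counts in the controls and 208 and 109 in the DMHCA samples. Among 25 desaturases and regulators tested, 4 had an unadjusted p under 0.05 with a higher mean, where 3.53% of all genes did. The fourth was Prkaa2, a catalytic subunit of AMP-activated kinase (log2 fold change 1.21). A lower mean with such a p was found for 2 (4.08% of all genes), Nr1h3 and Fads3, a fatty acid desaturase family gene, at -2.14. Of 12 LXR targets tested, 5 had such a p with a higher mean (3.53% of all genes), and 1 with a lower mean (4.08%). These were again Srebf1, Scd1, Scd2 and Nr1h3, which both lists hold, with the cholesterol exporter Abca1 (1.36) and Mylip (0.86), which directs degradation of the LDL receptor.

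Of 44 further genes of fatty acid supply, uptake, storage and breakdown, 40 were tested and their median log2 fold change was -0.02. A higher mean with an unadjusted p under 0.05 was found for Acss1, the mitochondrial acetyl-CoA synthetase (0.99), and for Taldo1, transaldolase of the pentose phosphate pathway (0.72). A lower mean was found for Olah, the thioesterase that releases medium-chain fatty acids for milk (-3.62), whose values were 56.6, 29.6 and 549 normalized counts in the controls and 12.6 and 21.9 in the DMHCA samples. Without Control 3 the Olah value was -1.34 (edgeR, unadjusted p = 0.0977). Of the relatives of members, Agpat2 had a log2 fold change of -0.68 with a standard error of 0.40, and Dgat2, a second diacylglycerol acyltransferase, one of -0.49 with a standard error of 0.66, both overlapping between groups. The Dgat2 value was 0.10 without Control 3 and -1.53 without DMHCA 2, and the Agpat2 value was -0.45 and -0.23.

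Adipocyte and milk genes differed between the samples and are given beside the members, since several members are abundant in adipocytes or in secretory epithelium. All 10 adipocyte markers had lower DMHCA means. An unadjusted p under 0.05 was reached by 8 (4.08% of all genes), also without Control 3 (3.27%), and 9 did not overlap (12.2%). None was at 0 throughout. Adiponectin (Adipoq) had 853, 335 and 3718 normalized counts in Control 1, 2 and 3 and 39.7 and 64.3 in DMHCA 1+3 and DMHCA 2. Perilipin (Plin1) had 637, 102 and 1823 in the controls and 24.7 and 60.7 in the DMHCA samples. In these bulk samples fewer adipocytes and less RNA per adipocyte cannot be told apart. Gpat3 was lower in the same samples as these markers, and Mid1ip1, Gpam, Acly and Acacb were higher in them, and the part of adipocytes in the members' values was not tested.

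The 10 milk genes summed to 24473, 16899 and 57144 TPM in Control 1, 2 and 3 and 27993 and 12405 TPM in DMHCA 1+3 and DMHCA 2. Of these genes 3 had an unadjusted p under 0.05 with a lower DMHCA mean (4.08% of all genes), and 1 without Control 3 (3.27%). By estimate 8 of the 10 were lower and 2, Lalba and Xdh, higher. The median log2 fold change was -4.03, and -1.38 without Control 3. Beta-casein (Csn2) had 33715, 906 and 631857 normalized counts in the controls and 2613 and 817 in the DMHCA samples. Lalba, the alpha-lactalbumin of milk, was highest in DMHCA 1+3 at 109151 normalized counts and had 42496 in Control 3, the 2 samples in which Thrsp was also highest. Csn2 did not follow that order, with less in DMHCA 1+3 than in Control 1. Thrsp and Fasn are themselves genes of the lactating gland, and the part of milk-secreting cells in their values was not tested.

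Other cell types varied as well. The 5 B cell markers summed to 33.8, 0.96 and 286 TPM in the controls and 2.06 and 2.24 TPM in the DMHCA samples, and the 5 T cell markers to 14.2, 2.74 and 140 TPM in the controls and 6.27 and 4.01 TPM in the DMHCA samples. An unadjusted p under 0.05 with a lower mean was found for 5 of 5 B cell and 2 of 5 T cell markers. The share over all genes was 4.08%. Without Control 3 it was found for 1 of 4 and 1 of 5 markers (3.27% of all genes). The pan-leukocyte gene Ptprc was highest in Control 3 (16089 normalized counts, against 2167 to 4313 elsewhere). Skeletal muscle genes summed to 562 to 1021 TPM in the controls and 878 and 247 TPM in the DMHCA samples. Hacd1, a muscle-enriched dehydratase, was highest in Control 2 and DMHCA 1+3, the samples with the highest muscle sums. DMHCA 2, with the lowest muscle sum, had 657 normalized counts of Hacd1, more than the 541 in Control 1. The part of muscle in the Hacd1 values was not tested. Luminal epithelial markers summed to 3705 to 4700 TPM in the controls and 5532 and 5562 TPM in the DMHCA samples, and 5 of the 8 had a higher DMHCA mean. All 5 proliferation genes had higher DMHCA means (132 to 300 TPM summed against 365 and 438 TPM), where 48.0% of all genes had an estimate above 0. Of them Mki67 alone had an unadjusted p under 0.05 (3.53% of all genes). Of the basal epithelial markers 1 of 6 had an unadjusted p under 0.05 with a lower mean (4.08% of all genes), and 0 without Control 3. Of the endothelial markers 1 of 5 had such a p with a higher mean (3.53%). None of the tested markers of luminal epithelium, fibroblasts, macrophages, brown adipocytes, skin or skeletal muscle did. Fibroblast markers summed to 793, 336 and 1305 TPM in the controls and 656 and 687 TPM in the DMHCA samples. By estimate 6 of 8 were lower and 2 higher, 1 of the lower without overlap. Their median log2 fold change was -0.34, -0.01 without Control 3 and -0.03 on log2(TPM + 1). Among them Col1a1 overlapped between groups, with 14162 to 42786 normalized counts in the controls and 28951 and 39871 in the DMHCA samples.

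**Figure D5:**
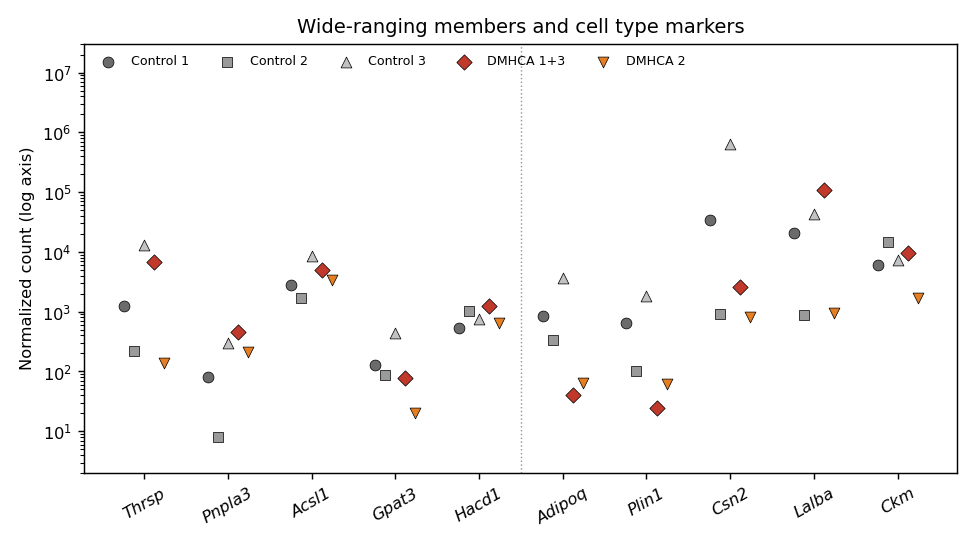
Normalized counts on a log scale of 5 members and 5 genes of adipocytes, secretory epithelium and muscle, one symbol per sample. Adipoq and Plin1 are lower in both DMHCA samples than in any control, and Control 3 is the highest sample for Acsl1 and Gpat3. Thrsp and Lalba are both high in Control 3 and DMHCA 1+3, whereas Csn2 is lower in both DMHCA samples than in Control 1 and Control 3.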

How the data were processed

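Total RNA of 6 libraries was sequenced by the study, and the submitters' processing notes name FastQC 0.11.9, cutadapt 2.9, Bowtie2 2.4.1, RSEM 1.3.1, DESeq2 1.26 and R 3.6. The authors aligned paired-end reads to the mouse genome (mm10) with RSEM on a Bowtie2 index and deposited, for each library, expected counts per gene (estimates without normalization, since RSEM splits reads with several possible origins), TPM and FPKM. TPM values deposited by the authors are scaled for gene length and to a constant sum per library. FPKM values deposited by the authors were not used. Strand settings are not given in the sources used here.

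Expected counts were rounded to whole numbers. DMHCA libraries 1 and 3 were summed because they differed far less than any other pair within a group (18.2% of genes differed by a chi-square test, against 82% to 87%). The comparison of the 5 samples used edgeR 4.0.16 (R 4.3.3): TMM, filterByExpr (minimum count 10, minimum total 15), quasi-likelihood F-test and Benjamini-Hochberg adjustment over 19427 genes. The study describes the libraries as coming from different mice, and n is 3 controls and 2 DMHCA samples. Each standard error was obtained from the F statistic, as the size of the log2 estimate over its square root. Normalized counts are scaled by TMM to the mean effective library size. TPM was used for levels between genes, with the mean of DMHCA libraries 1 and 3 for that sample.

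Alternatives were DESeq2 1.42.0 on 5 samples and on 6 libraries, edgeR on 6 libraries, either plain or blocked on the replicate number, other scalings and filters, robust dispersions, limma 3.58.1 on log2(TPM + 1) and log2(TPM + 0.1), and each library left out. The members, the other gene lists and the tests were chosen with earlier results of these data known. Named genes outside the members were Srebf1, Mlxipl, Nr1h2, Nr1h3, Scd1, Scd2, Agpat2 and Dgat2, genes of the 3 other pathway lists with an unadjusted p under 0.05 whose samples did not overlap (at most 12, smallest p first), and defining markers. Lalba, Xdh, Ckm and Mki67 fall outside this rule and were chosen once their values were known. GENCODE M21 (GRCm38) gave the gene coordinates, and in it all 35 members were found, and promoters are from RefSeq on GRCm38.p6. Exons of 13 members overlap an antisense gene and those of 2 members a gene on the same strand. The effective length of 10 members differed by more than 1.2 times between libraries. Python 3.11.15 with pandas 2.3.3, numpy 2.4.6 and matplotlib 3.10.9 served for tables and plots.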

Additional observations from a re-analysis of the deposited data

How the results depend on the processing

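Of the 554 values of single members under 17 alternatives, 517 kept their direction and stayed on the same side of an adjusted p of 0.05, 3 passed that threshold only under the alternative (Mid1ip1, Gpam and Agpat4 by DESeq2 on 6 libraries) and 34 changed sign, in 11 members. At an unadjusted p of 0.05, which is less strict, 26 of the 554 values passed only under the alternative and 17 no longer passed. The count of members with an unadjusted p under 0.05 and a higher mean was 4 (3.53% of all genes). It was 2 with edgeR on 6 libraries (7.56%), with library totals (3.37%) or with a stricter filter (3.48%). It was 5 by DESeq2 on 6 libraries (4.14%) and without a filter (2.84%). By limma it was 6 on log2(TPM + 1) (5.84%) and on log2(TPM + 0.1) (5.75%). It was 2 without Control 1 (3.33%), 3 without Control 2 (2.91%) and 7 without Control 3 (2.16%). The count with a lower mean was 0 in the fit reported. It was 3 by DESeq2 on 5 samples (4.35% of all genes) and on 6 libraries (6.21%), and 2 without a filter (5.1%). Each of these counts included Elovl3, which was too low for the fit reported. It was 2 with edgeR on 6 libraries (8.03%), 1 without Control 2 (6.48%) and 0 without Control 1 or Control 3. Over all genes the share with a lower mean was 4.08% in the fit reported. An adjusted p under 0.05 was reached by 0 members, and by 3 with DESeq2 on 6 libraries. Members that did not overlap and were higher numbered 10 (13.8% of all genes), and 5 with the stricter filter (13.9%). Those that were lower numbered 2 (12.2%), 1 on TPM (6.66%), and 2 to 4 when a library was left out (4 without Control 3, 16.7% of all genes, and 4 without DMHCA 2, 23.6%). Causes of these moves were not tested.

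Same-numbered libraries did not deviate together throughout (correlations of -0.0585, 0.342 and 0.359), so the numbers were not taken to pair the samples. With the replicate block 5 members had an unadjusted p under 0.05 with a higher mean (9.1% of all genes in that fit) and 3 with a lower mean (8.08%). Under the block Slc25a1 had -0.05, Thrsp 0.19, Acsl1 0.36 and Gpat4 -0.00029 on the log2 scale, opposite in sign to the values in the report.

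Other changes of sign were as follows, all log2 fold changes. On log2(TPM + 1) and log2(TPM + 0.1) the value was 0.01 for Acss2, 0.12 for Elovl5, 0.04 for Hacd2, and 0.48 and 0.52 for Acsl1. By DESeq2 on 5 samples Acsl1 had 0.01, and on 6 libraries Acsl1 had 0.08 and Agpat5 -0.02. With edgeR on 6 libraries Acsl1 had 0.04, Gpat4 -0.0003 and Agpat5 -0.03. Without a filter Acsl1 had 0.01, and with the stricter filter Gpat4 had -0.01. Estimates over the libraries left out ranged from -0.40 to 0.41 for Slc25a1, -0.54 to 0.01 for Acss2, -1.05 to 2.24 for Thrsp, -0.39 to 0.34 for Elovl5, -0.44 to 0.12 for Hacd3, -0.14 to 0.65 for Tecr, -0.42 to 0.90 for Acsl1, -0.08 to 0.54 for Acsl5, -0.02 to 0.13 for Gpat4, -0.50 to 0.68 for Agpat5, 0.19 to 0.71 for Elovl1, 0.00 to 0.83 for Elovl6, -0.79 to -0.13 for Elovl7, 0.10 to 0.74 for Hacd1, and 0.09 to 0.53 for Lpin2. Elovl4, Elovl2 and Elovl3 are limited by depth, and with 2 DMHCA samples the spread within that group rests on 1 difference. Without DMHCA 2 that group is a lone sample, assumed to vary like the controls.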
